A study of Mus musculus with 47 samples.

Results

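Among 9 T-cell lymphomas of mice that lacked Cdkn2a and had undergone retroviral insertional mutagenesis, 77 of 12393 measured genes were strongly activated in exactly 1 tumour. A gene counted as activated in a tumour where its log2(signal + 16) was at least 3 above the median of the other 8 tumours and its signal exceeded 500 arbitrary units. These 77 genes are 0.621% of all genes measured. A further 10 genes (0.0807%) met the rule in 2 or more tumours and were kept apart, which makes 87 activated genes (0.702%) in all. The measured values themselves chose the members, so their differences are given as a description, without a test, and nothing is read from the percentages.

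The study profiled 47 mouse T-cell lymphoblastic tumours of 14 genetic backgrounds on Affymetrix arrays, with 1 array per tumour. The labels give the 9 tumours as T-cell lymphoblasts of TLX1 negative lymphomas with a Cdkn2a knockout and retroviral mutagenesis, numbered 1 to 9. The arrays of the other 38 tumours took part in the choice of 1 probe set per gene, but not in the rule. These 38 tumours are labelled E2A knockout, Ikaros Plastic, LMO1 transgenic, Nup98HoxD13 transgenic, Pokemon transgenic, TLX1 transgenic, Tal1 transgenic, Tal1-LMO2 double transgenic, ThPOK transgenic, beta-catenin transgenic, olig1-LMO1 double transgenic, p53 knockout and rag E2A knockout. The sources used here do not give the virus, the strain, the age of the mice or the promoters of the transgenes. Nor do they state whether each tumour arose in a mouse of its own. Insertion sites were not analysed here, so an activated gene is a candidate by its level only.

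The Cdkn2a locus encodes the tumour suppressors p16Ink4a and p19Arf, which restrain the cell cycle and feed into the p53 pathway. In retroviral insertional mutagenesis a slow-transforming retrovirus integrates into the genome of blood cells, and its promoter and enhancer can switch on a nearby gene. A clone with a growth advantage expands, so an insertion-activated oncogene is typically expressed at a high level in the tumour that carries the insertion and not in its neighbours.

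Defining T-cell genes were present in all 9 tumours. The signal of Cd3e, a chain of the T-cell receptor complex, ranged from 707 to 1850, and that of Thy1 from 2207 to 4256. Tumour 8 had 10 of the 19 T-lineage genes measured over 500 and the other 8 tumours had 12 to 15, and genes near 0 in tumour 8 included Cd8a with a signal of 19.6 and Rag1 with 12.8. The array medians lay between 67.6 and 96.5 and were highest in tumour 8. The log2 3'/5' ratio lay between -0.44 and -0.17 for Gapdh and between 0.11 and 0.24 for Actb in the 9 tumours, against ranges up to 2.86 and 2.73 in the other 38. Pearson correlations between the 9 arrays over all genes ran from 0.889 to 0.983, and no pair stood apart as a repeat of 1 tumour. Tumour 8 was the least like the others, with a median correlation of 0.909, and its members are therefore described apart.

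The activations were spread unevenly. Tumour 8 held 52 of the 77 members (0.42% of genes), tumour 7 held 14 (0.113%) and tumour 2 held 7 (0.0565%). Tumours 3 and 9 held 2 each (0.0161%), and tumours 1, 4, 5 and 6 held none. Without tumour 8 in the group, 29 genes met the rule. In 56 members the tumour lay at least 2 log2 units above the next highest tumour, and in 7 members the next tumour lay within 1 log2 unit. The members just inside the limit on the difference were Jup (3.01, tumour 2) and Rras2 (3.08, tumour 9), and just outside lay Serpina1b (2.98) and Gimap3 (2.96), both in tumour 8. The members just inside the limit on the signal were Gal (502) and Perp (508), and just outside lay Pip (489) and Cst7 (488), all 4 in tumour 8.

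**Figure D1:**
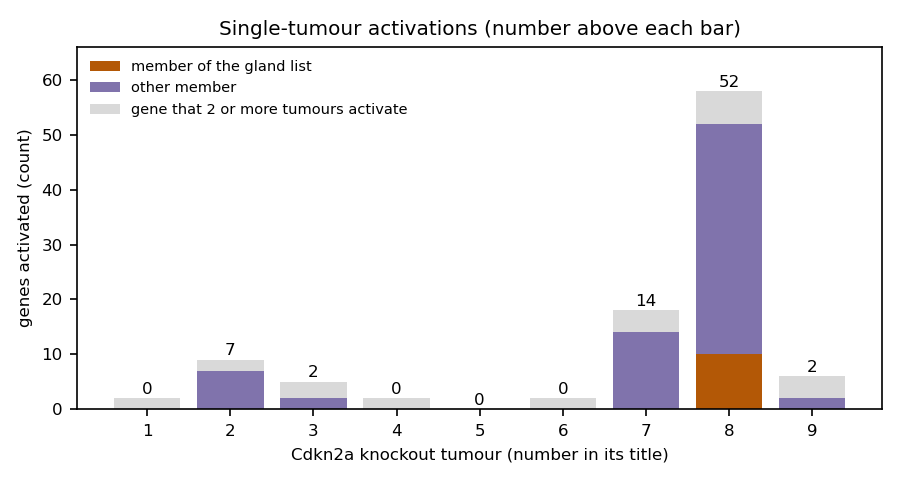
Number of genes activated in each of the 9 Cdkn2a knockout tumours; the number above a bar counts the genes activated in that tumour alone, and grey marks genes that 2 or more tumours activate. Tumour 8 has 52 single-tumour activations, of which 10 belong to the salivary and lacrimal gland list, and tumours 1, 4, 5 and 6 have none.

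The tumours of other backgrounds gave a second reference for each member. Here and below, the tumour value set against them is the one that chose the member, so the counts are a description only. Of the 77 members, 57 were also at least 3 above the median of the other 38 tumours, 13 exceeded 500 in none of the 38, and 15 exceeded 500 in 10 or more of them. Of all genes, 0.137%, 0.0403%, 0.0726%, 0.395% and 0.0565% were at least 3 above that median and over 500 in tumours 2, 3, 7, 8 and 9. For 23 members the level was above every one of the 38. No share of all genes is given for the counts over 500 in none or in 10 or more of the 38. Other probe sets of the same gene, which the rule did not use, were available for 23 members. Of these 41 probe sets 40 were highest in the same tumour, 37 were at least 1 above the median of the other 8 and 24 at least 3 above. They read the same RNA, so this checks the probes and not the tumours.

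Tumour 2 had the clearest activation of a developmental regulator. Sim2 encodes a bHLH-PAS transcription factor known from the development of the midline nervous system. Its signal was 870.2 in tumour 2, against a lowest of 1.38, a median of 3.67 and a highest of 31.7 in the other 8, a difference of 5.49 on the log2 scale. A second probe set gave 1682 in tumour 2 against 2.36 to 45.4 in the other 8. Among the 38 tumours of other backgrounds, 1 exceeded 500 for Sim2, beta-catenin transgenic 2 with 956.

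The other 6 members of tumour 2 include surface, secreted and regulatory proteins. Itgam, the integrin alpha chain CD11b known from myeloid cells, had a signal of 883 in tumour 2 and 16.8 to 69.5 (median 30.5) in the other 8, a log2 difference of 4.27. Fgl2, a fibrinogen-like secreted protein, had 879.5 in tumour 2 and 25.2 to 154 (median 45.7) in the other 8, a log2 difference of 3.86. Both genes were chosen by the rule for such a gap, so the gap is a description only. No gene of the macrophage list or of the neutrophil and eosinophil list was a member in any tumour. These lists had 17 and 15 measured genes, and 0.621% of all genes were members, so nothing is read from this. The summed signal of the macrophage list was 12453 in tumour 2 and highest in tumour 1 (17841). The part of myeloid cells in the Itgam value was not tested.

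Pou2af1 encodes OBF-1, a transcriptional coactivator of octamer-binding factors that is best known from B cells. Its signal was 2415 in tumour 2 and 72.3 to 562 (median 153) in the other 8, a log2 difference of 3.85. Inhbb, the beta B subunit of inhibins and activins, had 558 in tumour 2 and 41.5 to 148 (median 48.4) in the other 8, a log2 difference of 3.16. A second probe set for Inhbb was also highest in tumour 2, with 156 against at most 91.9 in the other 8, a log2 difference of 0.93.

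Wif1, a secreted inhibitor of Wnt signalling, was not high in tumour 2 alone. Its signal was 585 in tumour 2 and 5.70 to 352 (median 40.3) in the other 8, and tumours 6, 4 and 3 followed with 352, 277 and 257. Jup encodes plakoglobin, a relative of beta-catenin at cell junctions. Its signal was 2191 in tumour 2 and 183 to 447 (median 258) in the other 8.

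The members of tumour 2 coincided in 1 tumour of another background. In beta-catenin transgenic 2, 5 of the 7 members exceeded 500 (71.4%), against 17.1% of all genes on that array. This tumour was picked because it held the most. All 7 members were at least 3 above the median of the other 38. Tumour 2 was also set apart by sex-linked genes. Xist, the RNA that silences an X chromosome, had a signal of 56.7 in tumour 2 and 2075 to 3230 in the other 8, and Eif2s3y, a gene of the Y chromosome, had 402 in tumour 2 and at most 13.4 in the other 8. No sex-linked gene was a member of the activated set, and the part of sex in the 7 activations was not tested.

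Tumour 3 activated Car3 and Gzmk. Gzmk, a serine protease of cytotoxic granules, had a signal of 570 in tumour 3 and 3.60 to 51.9 (median 21.7) in the other 8, a log2 difference of 3.96. None of the 38 other tumours exceeded 79.2. Its chromosomal neighbour Gzma, another granule protease, had 3279 in tumour 3 but was activated in tumours 7, 8 and 9 as well, with 4817, 4412 and 5221, against 42.0 to 518 in tumours 1, 2, 4, 5 and 6. Gzma exceeded 500 in 34 of the other 38 tumours, so it was the low tumours that departed from the rest of the series.

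Car3, a carbonic anhydrase abundant in fat and muscle, had a signal of 1765 in tumour 3 and 22.4 to 403 (median 89.9) in the other 8, a log2 difference of 4.07. It exceeded 500 in 17 of the other 38. Car3 stands in the adipocyte list, and other genes of that list were also highest in tumour 3. Adiponectin (Adipoq) had 354 in tumour 3 and 3.12 to 122 in the other 8, and the fatty acid carrier Fabp4 had 2310 in tumour 3 and 269.7 to 1325 in the other 8. The 10 measured genes of the list summed to 5791 in tumour 3, and the next highest tumour reached 2870. The sum of tumour 3 includes the 1765 of Car3 itself. The part of fat tissue in the Car3 value was not tested. In bulk tumour RNA, fewer cells of a type and less RNA per cell cannot be told apart.

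Tumour 7 had 14 members, and 9 of them exceeded 500 in 10 or more of the other 38 tumours. Only 6 of the 14 were at least 3 above the median of the 38. For Notch1, Dtx1, Ly6d, Hdgfl3, Pdlim4 and Gimap4 the median of the 38 was well above that of the other 8 tumours. H2-T3, H2-T18 and Jchain differed from these. Their medians were 96.8, 66.8 and 229 in the 38, and 122, 147 and 193 in the other 8. The share of all genes over 500 in 10 or more of the 38 is not given here.

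Notch1 encodes the receptor that drives T-cell commitment and is a known target of retroviral insertion in mouse T-cell lymphoma, and Dtx1 (Deltex) is a known Notch target. Notch1 had a signal of 1537 in tumour 7 and 42.0 to 246 (median 112) in the other 8, a log2 difference of 3.60. A second Notch1 probe set gave 931 in tumour 7 and 17.5 to 205 in the other 8. Dtx1 had 2175 in tumour 7 and 47.04 to 133 (median 87.2) in the other 8, a log2 difference of 4.41. That tumour 7 alone was high for both genes is what the rule selects, so it is a description only.

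The other backgrounds gave another picture for the same pair. Notch1 exceeded 500 in 32 of the other 38 tumours, and the Notch1 level of tumour 7 was -0.58 on the log2 scale relative to their median of 2301. Dtx1 exceeded 500 in 28 of the 38, and tumour 7 differed from their median of 2071 by 0.07. Ptcra, the pre-T-cell receptor alpha chain and another known Notch target, was just outside the signal limit with 486 in tumour 7 and 4.40 to 39.5 in the other 8, and the median of the 38 was 337. For these 3 genes the level in tumour 7 was near that of most of the series, and the 8 others were below it.

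**Figure D2:**
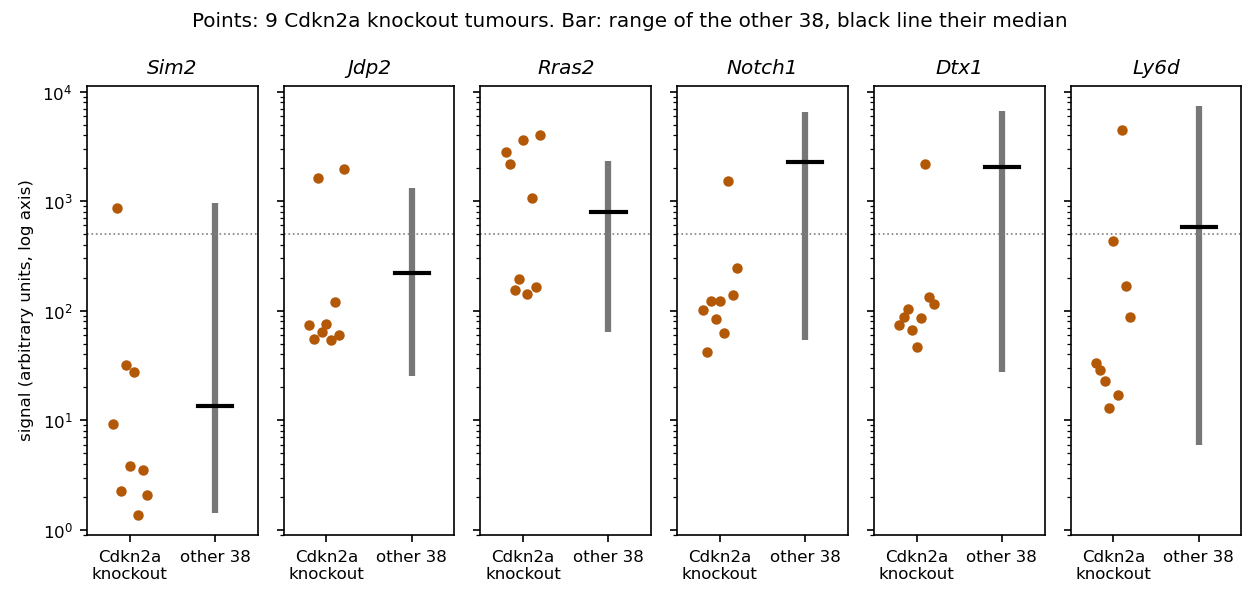
Signal (arbitrary units, log axis) of 6 genes in the 9 Cdkn2a knockout tumours, 1 point per tumour, beside the range and median of the other 38 tumours; the dotted line marks 500. Notch1 and Dtx1 in tumour 7 (1537 and 2175) sit near the medians of the other 38 (2301 and 2071), while Sim2 in tumour 2 (870.2) exceeds all but 1 of them.

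Ly6d, a GPI-anchored surface protein used as an early lymphoid marker, had the largest difference of tumour 7. Its signal was 4439.5 in tumour 7 and 12.99 to 434 (median 31.2) in the other 8, a log2 difference of 6.56. The highest of the others was tumour 5, and Ly6d exceeded 500 in 21 of the other 38. Hdgfl3, a growth factor-like nuclear protein, had 582 in tumour 7 and 3.33 to 61.8 (median 11.8) in the other 8, and exceeded 500 in 16 of the 38.

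Prss2 and Drc1 were rare in the rest of the series. Prss2 encodes a trypsinogen, whose gene lies within the T-cell receptor beta locus. It had a signal of 1563 in tumour 7 and 36.3 to 132 (median 55.4) in the other 8, a log2 difference of 4.47. Its 3 other probe sets gave 1987 to 2398 in tumour 7 and at most 217 in the other 8. Close copies of the gene exist, so the signal may be shared with them. Among the 38, only E2A knockout 1 exceeded 500, with 1053. The next gene on 1 side, Ephb6, was 1.95 above the median of the other 8 in tumour 7. Of the 15 pancreas genes measured, Prss2 alone exceeded 500 in tumour 7, and the median difference of the list was 0.04 on the log2 scale there. Drc1, a subunit of the dynein regulatory complex of cilia, had 677 in tumour 7 and 7.16 to 53.3 (median 29.0) in the other 8, and 1 of the 38 exceeded 500.

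Trgv4, a variable segment of the T-cell receptor gamma chain, had a signal of 839.8 in tumour 7 and 10.2 to 254 (median 26.0) in the other 8, a log2 difference of 4.35. Its 2 other probe sets were also highest in tumour 7. A related segment, Trgv1, was activated in tumours 7 and 8, with 1001 and 2252, against 14.2 to 80.0 in the other 7. These 2 were the activated genes among the 6 receptor segments measured, and close copies of gamma segments may share signal.

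The remaining 7 members of tumour 7 were Gsta4, H2-T3, H2-T18, Pdlim4, Ltb, Gimap4 and Jchain, with signals of 669 to 1704. H2-T3 and H2-T18 encode non-classical MHC class I proteins of near-identical sequence, so their probe sets may share signal. Gsta4, Ltb (lymphotoxin beta) and Gimap4 were within 1 log2 unit of the next tumour. Jchain, the joining chain of secreted antibodies, had 1704 in tumour 7 and 21.0 to 579.8 (median 193) in the other 8. The 17 measured B-cell and plasma-cell genes, Jchain among them, summed to 7070 in tumour 7 and 7029 in tumour 8. The median sum was 2087 over the 9 tumours, and the sum reached up to 27449 in the other 38. The sum of tumour 7 includes the 1704 of Jchain itself. The part of such cells in the Jchain value was not tested.

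Tumour 9 had Ripk4 and Rras2 as its members. Ripk4, a kinase known from epidermal differentiation, had a signal of 1099 in tumour 9 and 2.44 to 60.5 (median 26.4) in the other 8, a log2 difference of 4.73. A second probe set was also highest in tumour 9, 3 of the other 38 exceeded 500, and the highest of them, TLX1 transgenic 1, reached 1101. The summed signals of the skin list (823) and the thymic epithelium list (1020.2) in tumour 9 were second to those of tumour 8 (1052 and 2522). The skin list sums of tumours 3 and 1 were close behind, with 760 and 757. In tumour 9 the median log2 differences of the skin and thymic epithelium lists were 0.05 and 0.43, against 0.03 for all genes. Tumours 3 and 1 had 0.18 and 0.29 for the skin list, and 0.53 and 0.44 for the thymic epithelium list. The part of epithelial cells in the Ripk4 value was not tested.

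Rras2 encodes a small GTPase of the Ras family and is a known insertion target. It met the rule in tumour 9 with a signal of 4029, but the median of the other 8 hid a split. Tumours 5, 1, 2 and 7 had 3648, 2816, 2169 and 1062, while tumours 3, 4, 6 and 8 had 155, 197, 143 and 164. Tumour 5 missed the rule narrowly, with a difference of 2.94. Rras2 was thus high in 5 of the 9 tumours, and tumours 9, 5 and 1 lay above the highest of the other 38 (2349).

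Known insertion targets supplied 3 members. Of the 86 genes listed, 79 were measured and 3 (3.8%) were single-tumour members, against 0.621% of all genes, with no test of that difference. They were Ccnd2 in tumour 8, Notch1 in tumour 7 and Rras2 in tumour 9. Jdp2, also on the list, was activated in 2 tumours. None of the 81 homeobox genes measured was activated by the rule, against 0.702% of all genes, and nothing is read from that difference. Several other listed oncogenes were high in all 9 tumours and so could not meet it: Myc had a signal of 1546 to 3116 and Myb of 1655 to 4789.9.

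Jdp2 encodes an AP-1 repressor and is a known insertion target in mouse T-cell lymphomas. Its signal was 1634 in tumour 3 and 1949 in tumour 9, against 54.3 to 121 in the other 7. Both values lay above the highest of the other 38, which was 1309. Jdp2 exceeded 500 in 8 of the 38. The adjacent genes Fos and Batf, both of the AP-1 family, were nearer to the other tumours: in tumour 3 they were 1.11 and 0.87 above the median of the other 8 on the log2 scale, and in tumour 9 they were 0.34 and 0.39 above. A second Jdp2 probe set was low in all 9 tumours. It was highest in tumour 9 with 52.8 and had 29.5 in tumour 3, against 2.58 to 43.2 in the other 7.

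Ccnd2 encodes cyclin D2, which drives entry into the cell cycle. Its signal was 1118 in tumour 8 and 60.7 to 378 (median 80.0) in the other 8, a log2 difference of 3.56. All 6 of its other probe sets were highest in tumour 8. It exceeded 500 in 6 of the other 38, up to 2396 in p53 knockout 2.

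**Figure D3:**
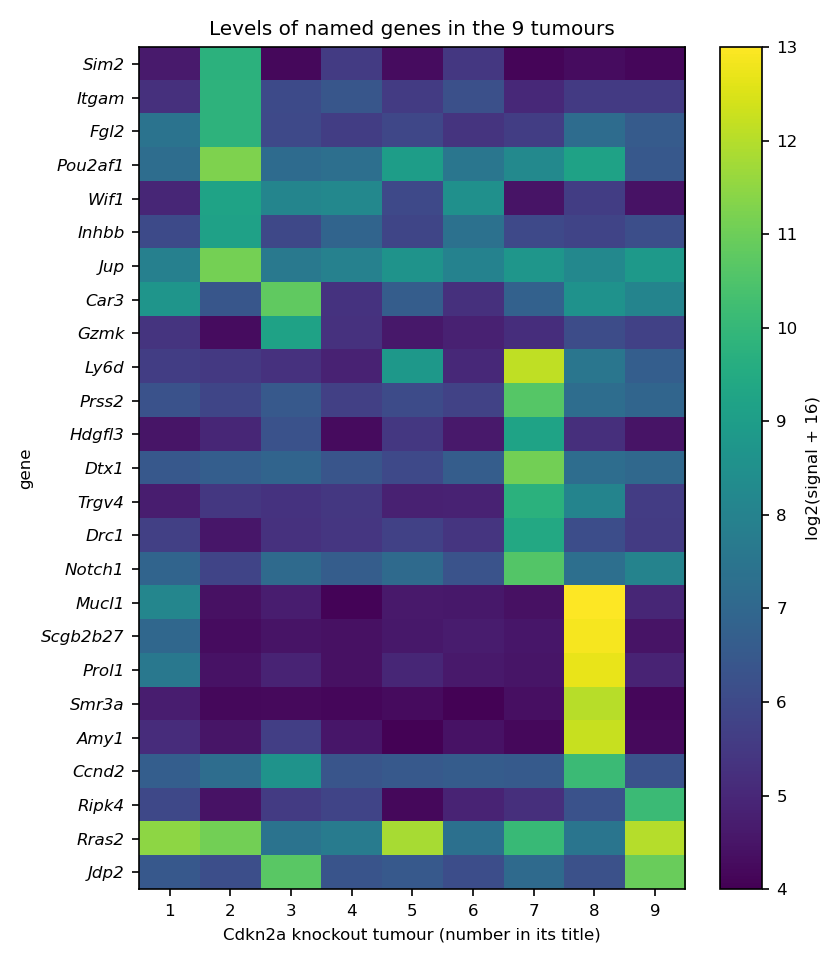
Level of 25 genes, as log2(signal + 16), in the 9 Cdkn2a knockout tumours, grouped by the tumour that activates them. Most rows have 1 bright cell, while Rras2 is bright in tumours 1, 2, 5, 7 and 9, and Jdp2 in tumours 3 and 9.

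Tumour 8 carried a gland programme. Salivary and lacrimal glands secrete enzymes, mucins and small binding proteins into saliva and tears, and their genes are not part of the T-cell programme. Of 39 gland genes listed, 25 were measured and 10 of them (40%) were members of tumour 8. The median difference of the 25 genes in tumour 8 was 4.13 on the log2 scale, against 0.17 for all genes. The list was drawn up with the gland signal of this tumour already known, so its count is not independent evidence.

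Among the single-tumour members of the list, mucin and saliva protein genes had the 3 largest differences in tumour 8. Mucl2, a mucin also on the list, had a log2 difference of 8.02 in tumour 8, but tumour 1 activated it too. Mucl1, a small mucin of gland secretions, had a signal of 8959 in tumour 8 and 1.14 to 266 in the other 8, the largest difference of any member at 8.53. Prol1, a proline-rich protein of tears and saliva, had 6684 in tumour 8 and 5.22 to 179 in the other 8, a log2 difference of 7.96. Smr3a, a submaxillary gland protein, had 4140 in tumour 8 and 0.58 to 10.3 in the other 8, a log2 difference of 7.81. Smr2, the measured gene between Smr3a and Prol1, had 113 in tumour 8 and 80.7 to 165 in the other 8. The gaps of Mucl1, Prol1 and Smr3a to the next highest tumour were 4.99, 5.10 and 7.30 on the log2 scale.

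The secreted enzymes followed. Amy1, salivary amylase, had a signal of 4815 in tumour 8 and 0.72 to 35.0 in the other 8, a log2 difference of 7.77. Car6, the secreted carbonic anhydrase of saliva, had 7605 in tumour 8 and 16.2 to 219 in the other 8. Dnase1, a secreted nuclease, had 3224 in tumour 8 and 6.94 to 25.2 in the other 8. Klk1, tissue kallikrein, had 1626 in tumour 8 and 4.06 to 50.4 in the other 8. Bpifa2 (6566), Wfdc12 (2825) and Dcpp3 (1339), further secreted proteins of the list, completed the 10 in tumour 8.

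Several other members outside the list are known from gland or epithelial secretions, and they were picked out after their values were seen. The secretoglobins Scgb2b27 and Scgb1b27, neighbours on chromosome 7 in assembly GRCm38.p6, had signals of 7465 and 8699 in tumour 8. Mup5, a major urinary protein, had 7789, and Chia1, an acidic chitinase, had 4703. Lactoperoxidase (Lpo), which protects secretions against bacteria, had 656 in tumour 8 and 3.21 to 8.86 in the other 8. Keratin 18 (Krt18), of simple epithelia, had 1000.5 in tumour 8 and 8.92 to 151 in the other 8. Related secretory lists were also higher in tumour 8, at lower levels. The 15 pancreas genes had a median difference of 1.38 on the log2 scale there, with Cela2a at 185 against at most 21.1 in the other 8 and Ctrb1 at 170.4 against at most 56.6, and none exceeded 500. The 10 mammary genes had a median difference of 0.94, with the milk genes Csn2 and Wap at 38.8 and 46.7.

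Summed over the 25 genes, the gland signal was 57895 in tumour 8 and 3035 in tumour 1, and it lay between 417 and 674 in the other 7. In tumour 1 few genes of the list made up this sum, and the median difference of the list there was 0.28. Mucl2, another gland mucin, was activated in both, with 7547 in tumour 8 and 1773 in tumour 1, against 4.48 to 54.3 in the other 7, and tumour 1 was the second highest for Mucl1 (266), Prol1 (179) and Car6 (219). Amy1 and Bpifa2 were low in tumour 1, with 19.2 and 34.6.

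The same genes were present in another background. In Ikaros Plastic 2 the summed gland signal was 121390, and the other 2 Ikaros Plastic tumours followed with 5204 and 1939, while the lowest of the 38 had 259. Of the 52 members of tumour 8, 28 (53.8%) exceeded 500 in Ikaros Plastic 2, against 17% of all genes on that array, which was picked because it held the most. Not all gland genes were shared: Mucl1 had 85.4 and Amy1 had 114 in Ikaros Plastic 2, and neither exceeded 500 in any of the 38. The part of gland tissue in the activations of tumour 8 was not tested.

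**Figure D4:**
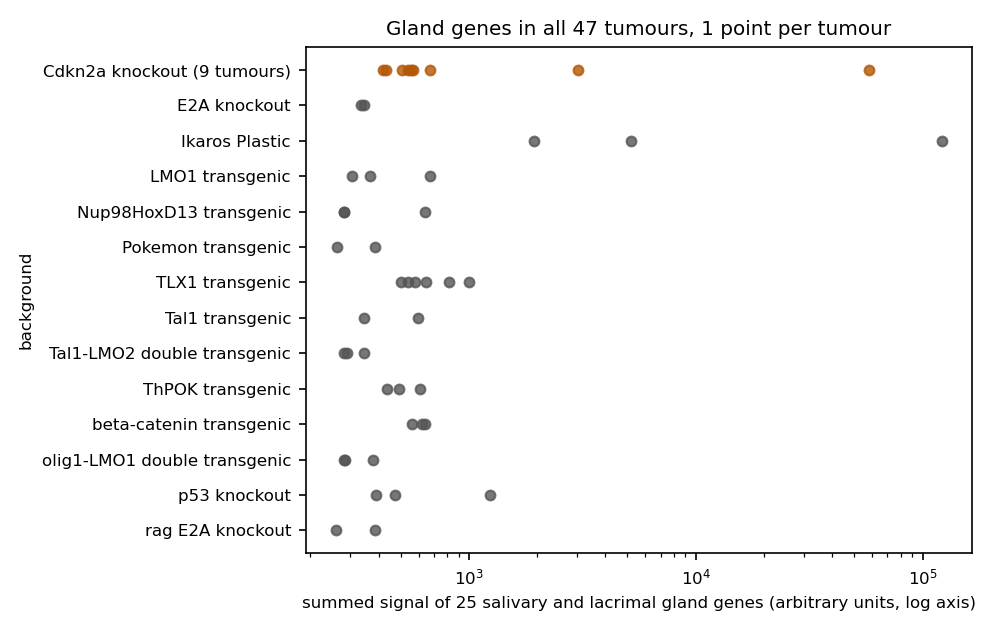
Summed signal of 25 salivary and lacrimal gland genes (arbitrary units, log axis) in all 47 tumours by background, 1 point per tumour, with the Cdkn2a knockout tumours on top. Cdkn2a knockout tumour 8 (57895) and tumour 1 (3035) stand above their group, and Ikaros Plastic tumours reach 121390, 5204 and 1939.

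The members of tumour 8 without a known gland role included immune genes. Cd52, a small glycoprotein of lymphocyte surfaces, had a signal of 4737 in tumour 8 and 77.4 to 1121 in the other 8, and exceeded 500 in 23 of the other 38. Ms4a6b, a tetraspanning surface protein of T cells, had 3485 in tumour 8 and 126 to 763 in the other 8, and exceeded 500 in 20 of the 38. Gimap6 and Gimap7, neighbouring GTPases of lymphocyte survival, had 759.5 and 604 in tumour 8, and H2-DMa, which loads peptides on MHC class II, had 1266. Slfn1, a gene linked to T-cell quiescence, had 515 in tumour 8 and 1.37 to 79.9 in the other 8, and none of the 38 exceeded 500. Some B-cell genes were also highest in tumour 8: the 17 genes of the B-cell and plasma-cell list had a median difference of 1.503 there, and Cd79a, Cd79b and Cd22, of the B-cell receptor complex and surface, had 280.5, 322 and 299. The part of B cells in the values of these members was not tested.

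Lclat1 and Myl1 were members of another kind. Lclat1, a lysocardiolipin acyltransferase, had a signal of 3685 in tumour 8 and 223 to 305 in the other 8, and none of the 38 exceeded 424. It was measured at an ordinary level in all other tumours, so its log2 difference of 3.74 did not rest on values near 0. Myl1, a myosin light chain of skeletal muscle, had 3475 in tumour 8 and 2.45 to 39.5 in the other 8. The 15 muscle genes had a median difference of 0.62 on the log2 scale in tumour 8, against 0.17 for all genes. Atp2a1, the calcium pump of fast muscle, had 137 in tumour 8 and 28.8 to 64.8 in the other 8, and Acta1, muscle actin, had 58.3. The part of muscle in the Myl1 value was not tested. Cpa3, a mast cell carboxypeptidase, had 566 in tumour 8 and 22.03 to 45.9 in the other 8, and the 12 genes of the mast cell list had a median difference of 0.56 there. Of that list, the chymase Cma1 had 88.7 in tumour 8 and 28.6 to 66.4 in the other 8, while Mcpt4 and Tpsb2 had 24.9 and 30.7 in tumour 8.

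Of the 52 members of tumour 8, 42 were also at least 3 above the median of the other 38, and 12 exceeded 500 in none of them. The lists of macrophages, dendritic cells, erythroid cells, platelets, endothelium, stroma, smooth muscle, liver and immunoglobulin segments held no single-tumour member in any of the 9 tumours. These lists had 7 to 21 measured genes each, and 0.621% of all genes were members, so nothing is read from their lack of members. In tumour 8 the dendritic cell and smooth muscle lists had median log2 differences of 0.83 and 0.73, against 0.17 for all genes.

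The 10 genes activated in 2 or more tumours were shared by sets of 2 to 4 tumours, and most of these sets differed. Glycam1 and Trgv1 had the same set, tumours 7 and 8. Ctla4, an inhibitory receptor of T cells, had a signal of 1432 in tumour 4 and 1385 in tumour 6, and tumour 2 followed with 694. Apcdd1, a Wnt inhibitor, had 885, 1031 and 1652 in tumours 2, 4 and 6, and 14.9 to 433 in the other 6. In the 3 beta-catenin transgenic tumours Apcdd1 ranged from 1247 to 3008. Beside them, 1 ThPOK transgenic tumour exceeded 500 among the 38, with 1038.

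Dntt, the enzyme that adds nucleotides at receptor joints, had a signal of 1916 in tumour 7 and 2261 in tumour 9, against 8.79 to 679 in the other 7, and exceeded 500 in 34 of the other 38. Glycam1, a mucin known from milk and from the high endothelial venules of lymph nodes, had 1092 in tumour 7 and 1766 in tumour 8, against 0.82 to 71.5 in the other 7. Mpp4, a scaffold protein known from the retina, had 867 in tumour 8 and 690.4 in tumour 9, against 1.79 to 52.6 in the other 7. Ybx3, a cold-shock domain protein, was high in 4 tumours, with 2564, 2249, 3120 and 2196 in tumours 1, 2, 3 and 8, against 84.1 to 169 in the other 5.

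Genes next to the members were read in the gene order of assembly GRCm38.p6, taking the 3 measured genes on each side at any distance, up to 6827 kb. In tumour 8, 21.9% of 310 neighbours were at least 1 above the median of the other 8, against 11.3% of all genes. In tumour 7 the share was 13.4% of 82 neighbours, against 2.69% of all genes, and in tumour 2 it was 2.38% of 42, against 1.57%. In tumour 3 it was 16.7% of 12 (2 genes, 1 of them the activated Gzma), against 2.4%. In tumour 9 it was 9.09% of 11 (1 gene), against 2.06%. Of the 457 neighbours read in all, 10 were themselves activated by the rule, and a gene beside several members was counted each time. The shares are therefore a description only and were not tested. Family members share a neighbourhood, and 4 pairs of members lay within 500 kb of each other, all in tumour 8: Scgb2b27 with Scgb1b27, Prol1 with Smr3a, AW112010 with Ms4a6b, and Gimap6 with Gimap7.

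Some chromosomes as a whole were higher or lower in 1 tumour than in the others. Over 6602 genes brighter than the array median, the median of chromosome 17 was 0.27 above the other 8 tumours in tumour 2 on the log2 scale, and 287 of 360 genes (79.7%) lay above. The median of chromosome 15 was -0.27 in tumour 9, with 199 of 268 genes (74.3%) not above the other 8, and -0.22 in tumour 8, with 168 of 268 (62.7%) not above. These 3 values were picked after seeing all 180, and the other 177 ran from -0.11 to 0.15. None of the 7 members of tumour 2 lies on chromosome 17, and neither member of tumour 9 lies on chromosome 15, while Mucl1, Krt18 and Retreg1, members of tumour 8, do lie there.

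**Figure D5:**
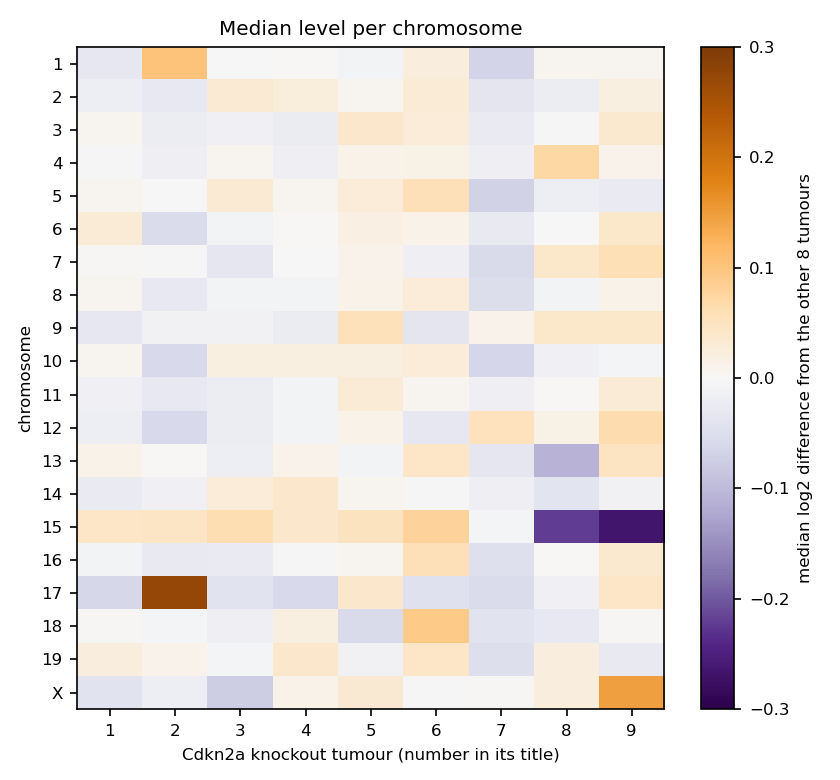
Median log2 difference of each tumour from the other 8, per chromosome (rows) and Cdkn2a knockout tumour (columns). Chromosome 17 stands out in tumour 2 (0.27), and chromosome 15 in tumours 9 (-0.27) and 8 (-0.22).

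To set the number of activations beside other backgrounds, each tumour was compared with the mean of 2 tumours of its own background, over all pairs of group mates. In this matched form the 9 Cdkn2a knockout tumours had 2.25 to 59 genes activated, with a median of 6 and the highest in tumour 8. Backgrounds not labelled with mutagenesis gave ranges that overlap it: the 6 TLX1 transgenic tumours had 5.9 to 46.1, the 3 Ikaros Plastic tumours 5 to 120 and the 3 p53 knockout tumours 19 to 281, while the 3 beta-catenin transgenic tumours had 0 to 3. The differences between backgrounds were not tested.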

How the data were processed

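Total RNA of 47 mouse T-cell lymphoblastic tumours was hybridized to 1 Affymetrix array each, as the labels' protocols state. MAS5, named in the submitters' processing notes, gave the linear signal that the authors deposited for each probe set, a summary of intensity in arbitrary units. The sources used here do not give its version, its scaling target or the genome build. Mean signals trimmed of 2% at each end were equal on the 9 arrays (250.08 to 250.10), which shows a scaling made ahead of deposit. Low signals are imprecise, and 1 array per tumour limits the precision.

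The 9 tumours came from the titles. Of 22690 probe sets, 64 are Affymetrix controls and 20380 carry 1 gene symbol. For each of 12393 genes the probe set with the highest mean log2(signal + 16) over the 47 arrays was read, with no filter on low values. The limits were a difference of 3 and a signal over 500. Chromosomes and neighbours come from RefSeq's table of GRCm38.p6. Scripts ran in Python 3.11.15 with numpy 2.4.6 and pandas 2.3.3 and were tested on simulated data. No difference was tested, because 1 tumour against 8 has no replicate, and only Dixon's gap test was applied to array and chromosome values. The alternatives tried were other pseudocounts, limits, scaling, probe sets and references, and leaving out each tumour.

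Named were the 6 members of each tumour with the largest difference, all members in the insertion target, homeobox and receptor segment lists, the 4 largest of any other list with 2 or more members in 1 tumour, the 6 shared genes with the largest smallest difference, and the genes at the limits. Other genes named were picked after their values were seen. Members, lists and this rule were chosen with earlier results of these data known.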

Additional observations from a re-analysis of the deposited data

Results flagged for a closer look

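The member genes were not screened for a tumour far from the others, since they were chosen for that. Of 24 groups of 9 array or chromosome values that were screened, 6 had 1 tumour whose gap to its nearest neighbour exceeded Dixon's 95% value, and chance marks about 1 group in 20. Tumour 8 was marked for its median correlation with the other 8 arrays (0.909) and for its chromosome 4 median (0.0708 on the log2 scale). Tumour 2 was marked for its chromosome 17 median (0.27) and tumour 9 for its chromosome X median (0.15). Tumour 6 was marked for the log2 3'/5' ratios of Gapdh (-0.17) and Actb (0.24), and it held no single-tumour activation.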

How the results depend on the processing

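No paired analysis was possible because the results come from no test and from 1 background. The count of 77 moved to 43 with a pseudocount at the median of all signals (tumours 2, 3, 6, 7, 8 and 9 then had 4, 1, 1, 6, 30 and 1, and 1 insertion target), to 155 with a difference of 2 (tumours 1, 2, 3, 4, 6, 8 and 9 had 2, 11, 5, 2, 7, 98 and 9), to 37 with a difference of 4 (tumours 2, 7 and 8 had 2, 5 and 26, with 0 insertion targets) and to 41 with a signal over 1000 (tumours 2, 3, 7 and 8 had 2, 1, 8 and 28). With a signal over 250, tumours 2, 3 and 6 had 12, 4 and 2. Against the highest of the other 8, 35 genes passed (2, 1, 4, 27 and 1 in tumours 2, 3, 7, 8 and 9, with 0 insertion targets). Against the median of the other 38, tumours 3, 4, 6, 7 and 9 had 1, 1, 1, 6 and 4, with 1 insertion target, and 57 members were shared. Quantile normalization kept 75 of the 77 and gave tumour 9 a count of 1. Any probe set gave tumours 1 and 9 a count of 1 each, and the probe set with the largest interquartile range gave tumour 1 a count of 1. Pseudocount 1 kept all 77 among 87. Leaving out each tumour in turn gave 29 (without tumour 8) to 84 in all, 1 to 3 insertion targets, and 0 to 1, 6 to 7, 2 to 3, 0 to 2, 0 to 0, 0 to 3, 10 to 16, 52 to 63 and 1 to 3 in tumours 1 to 9. Genes over 4 times the array median gave chromosome 15 in tumour 8 a median of -0.42. The causes of these shifts were not tested. Low signals limit the differences of genes that are near 0 in the other tumours.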

Other observations

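The mirror of the rule, a gene at least 3 below the median of the other 8 tumours where that median exceeds 500, was met in exactly 1 tumour by 19 genes (0.153% of all genes), 13 of them in tumour 8 (0.105%). Several of the 13 belong to the thymocyte programme. Cd8a, the co-receptor alpha chain, had a signal of 19.6 in tumour 8 and 1195 to 3833 in the other 8. Cd8b1, its partner chain, had 93.0 in tumour 8 and 1844 to 3769 in the other 8. Rag1, of the recombinase that assembles receptor genes, had 12.8 in tumour 8 and 708 to 2402 in the other 8. The homing receptor Ccr9 had 42.8 in tumour 8 and 268 to 2525 in the other 8, and the chromatin organizer Satb1 had 308 in tumour 8 and 2429 to 5498 in the other 8.

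The T-lineage genes of tumour 8 were mixed, and the median difference of the 19 genes was -0.20 on the log2 scale, against 0.17 for all genes. Bcl11b, a T-cell commitment factor, had a signal of 226 in tumour 8 and 459 to 905 in the other 8, and Cd2 had 284 in tumour 8 and 353 to 847 in the other 8. Cd4 had a signal of 713 in tumour 8 and 376 to 1218 in the other 8. Cd3e had 1850 in tumour 8 and Cd5, a surface receptor that rises with maturation, had 1212, both the highest of the 9. The low genes thus sat beside the gland genes and the high Cd52, Ms4a6b and Gimap genes in the same tumour. H2-Q2, a non-classical MHC class I gene, was also low in tumour 8, with 31.0 against 1063 to 2217 in the other 8.

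The remaining 6 single losses were spread over 5 tumours. Tumour 2 had Xist and Cd24a (242), tumour 5 had Plac8 (90.6), tumour 6 had Ighm (93.1), tumour 7 had Gnb4 (111) and tumour 9 had Hemgn (52.5). The chromosome 15 medians of tumours 8 and 9 read against the other 38 tumours were -0.15 and -0.17, while the other 7 Cdkn2a knockout tumours lay between 0.10 and 0.17. The 38 tumours themselves ran from -0.50 to 0.25 on this chromosome, so all of these values lay within their range.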
